A study of Homo sapiens with 9 samples.

Results

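The genes described here are 10 members of the epidermal growth factor receptor family and its ligands, taken by symbol from the 26475 gene rows of the count table: the receptors EGFR, ERBB2 and ERBB3 and the ligands HBEGF, NRG1, AREG, TGFA, EREG, BTC and EPGN. RNA was sequenced from hTERT_RPE1 cells, an established line of human retinal pigment epithelial cells immortalised with telomerase, in 9 libraries. The 3 Control libraries came from cells with the empty pLKO_1 vector on fibronectin-coated glass, the 3 sh_PIP4K2B libraries from cells on the same glass that each carried another hairpin against PIP4K2B, a kinase of phosphoinositide lipids, and the 3 Soft libraries from empty-vector cells on a fibronectin-coated gel of 2.3 kPa. All cells were taken 24 h after seeding. The treatment label of Control and Soft names a control shRNA where the titles name the empty vector, and which of these the cells carried is unsettled. The spread within sh_PIP4K2B holds the differences between hairpins #1, #2 and #3, and each hairpin had 1 library. The labels do not say that libraries of one condition came from separate cultures, and the p-values then measure only the spread between these libraries, which may be technical.

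EGFR is a receptor tyrosine kinase that dimerises with itself or with the other receptors of the family when a ligand binds. ERBB2 has no known ligand of its own and acts as a partner, and ERBB3 has little kinase activity and signals through its partner. The ligands are made as membrane-anchored precursors that metalloproteases of the ADAM family release from the cell surface. AREG, TGFA and EPGN bind EGFR, HBEGF, EREG and BTC bind both EGFR and ERBB4, and NRG1 binds ERBB3 and ERBB4. In epithelia, including the retinal pigment epithelium, these factors are known for driving proliferation and wound closure.

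Library totals ran from 19217336 to 24020796 counts, and 3 counts in 1 library, taken as the limit of detection, were 0.131 to 0.148 CPM (counts scaled to a common library total, here with edgeR's TMM factors). That limit covers counting error only, while the 95% intervals of fold changes given below also hold the spread between libraries. The median SD of log2 CPM between libraries was 0.0807 in Control, 0.0733 in Soft and 0.356 in sh_PIP4K2B. PIP4K2B itself was at 122 ± 2.26 CPM in Control (SD, n = 3) and at 48.4, 40.9 and 36.6 CPM with hairpins #1, #2 and #3, which was 39.6%, 33.5% and 30.0% of the Control mean. Of 11 retinal pigment epithelium markers only MITF, OTX2 and RDH5 were above 1 CPM in every library, RPE65 and TYR reached at most 1 count, and TTR had none. The epithelial keratins KRT8 and KRT18 were abundant while CDH1 reached at most 1 count and EPCAM at most 2, and 5 of 6 mesenchymal markers, VIM among them, were above 1 CPM throughout. Of 4 blood markers 3 reached at most 3 counts in any library, and PTPRC, at 0.286 to 0.524 CPM, reached at most 12.

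The members other than NRG1 lie on 6 chromosomes (GENCODE v44, GRCh38). EGFR spans chromosome 7 from 55019017 to 55211628, ERBB2 chromosome 17 from 39687914 to 39730426 and ERBB3 chromosome 12 from 56076799 to 56103505, all on the plus strand. HBEGF spans chromosome 5 from 140332843 to 140346603 and TGFA chromosome 2 from 70447284 to 70554193, both on the minus strand. The other 4 ligand genes are neighbours on chromosome 4: EPGN from 74308470 to 74316789, EREG from 74365145 to 74388749 and AREG from 74445136 to 74455005 on the plus strand, then BTC from 74744759 to 74794523 on the minus strand. EPGN and EREG are 48355 nt apart, EREG and AREG 56386 nt, and AREG and BTC 289753 nt. Stretches of 75 nt, the read length, that also occur in transcripts of other genes made up 1.3% of the EPGN transcript, 0.0084% of that of NRG1 and none of those of the other members. EGFR, ERBB2, ERBB3, TGFA and NRG1 overlap other annotated genes. The library kit kept the strand, the strand setting of the counting is not given in the sources used here, and reads of overlapping genes may therefore be mixed.

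Upstream sequences are shown for AREG and HBEGF, ligand genes whose levels differed between conditions, and for EREG and EPGN, the nearest neighbours of AREG. Each is the 250 bases before the annotated start in the direction of the gene (RefSeq, GRCh38.p14), lower case, with motif matches in capitals. They lie at chr4:74444886-74445135 (AREG), chr4:74364895-74365144 (EREG) and chr4:74308220-74308469 (EPGN) on the plus strand and at chr5:140346604-140346853 (HBEGF) on the minus strand.
AREG: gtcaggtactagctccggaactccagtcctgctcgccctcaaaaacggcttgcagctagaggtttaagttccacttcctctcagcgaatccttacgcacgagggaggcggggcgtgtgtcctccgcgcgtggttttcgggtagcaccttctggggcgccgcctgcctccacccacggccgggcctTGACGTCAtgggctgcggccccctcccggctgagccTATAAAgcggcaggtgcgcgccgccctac
EREG: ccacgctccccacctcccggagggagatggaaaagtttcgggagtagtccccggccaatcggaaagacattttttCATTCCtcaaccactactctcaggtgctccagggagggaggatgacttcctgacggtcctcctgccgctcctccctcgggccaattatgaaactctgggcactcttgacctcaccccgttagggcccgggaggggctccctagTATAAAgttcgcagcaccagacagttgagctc
EPGN: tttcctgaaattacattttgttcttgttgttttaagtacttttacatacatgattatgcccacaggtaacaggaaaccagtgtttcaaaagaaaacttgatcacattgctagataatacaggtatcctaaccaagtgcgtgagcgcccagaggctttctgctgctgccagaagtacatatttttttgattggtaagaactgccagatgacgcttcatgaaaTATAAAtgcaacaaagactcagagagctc
HBEGF: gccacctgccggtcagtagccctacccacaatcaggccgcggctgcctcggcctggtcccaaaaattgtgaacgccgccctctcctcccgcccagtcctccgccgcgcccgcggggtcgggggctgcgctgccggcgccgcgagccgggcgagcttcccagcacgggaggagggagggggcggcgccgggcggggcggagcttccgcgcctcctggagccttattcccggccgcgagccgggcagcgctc
The search covered both strands for the AP-1 site (TGACTCA), the CArG box and the cAMP response element (TGACGTCA), and for the word of a TEAD site (CATTCC). The TATA box, spelled TATAAA, was searched for on the strand of the gene only, and no matches overlapped. AREG held a cAMP response element that began at base -65 from the start and a TATA box at base -29. EREG held a TATA box at base -32 and a TEAD word at base -175, EPGN a TATA box at base -29, and the HBEGF stretch held none of these words. Of 35116 promoters of this length 6.80% held the TATA box, 11.9% the TEAD word, 4.20% the AP-1 site, 1.65% the cAMP response element and 1.16% the CArG box. These matches describe letters and no occupancy was measured.

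Levels of different genes were compared per kilobase of the reference transcript, which assumes that isoform in every library. In Control the order of CPM per kilobase was HBEGF at 48.6 ± 1.20, ERBB2 at 21.6 ± 0.826, EGFR at 8.98 ± 0.593, NRG1 at 3.74 ± 0.181, AREG at 2.97 ± 0.449 and TGFA at 0.534 ± 0.0520 (SD, n = 3 each). BTC, EPGN and ERBB3 followed at 0.0904 ± 0.0498, 0.0851 ± 0.0771 and 0.0770 ± 0.00652, closer to each other than the spread between libraries, and EREG was last. In Soft the receptors came first, with ERBB2 at 26.5 ± 0.712 and EGFR at 10.7 ± 0.541 CPM per kilobase ahead of HBEGF at 8.45 ± 1.01. There AREG followed at 1.07 ± 0.119, and NRG1 at 0.516 ± 0.0143 and TGFA at 0.471 ± 0.163 differed by less than the spread of TGFA. In sh_PIP4K2B the mean order was HBEGF at 45.2 ± 21.1, ERBB2 at 21.8 ± 7.57, EGFR at 10.2 ± 3.43 and AREG at 9.92 ± 6.79, of which EGFR and AREG differed by less than their spread.

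**Figure D1:**
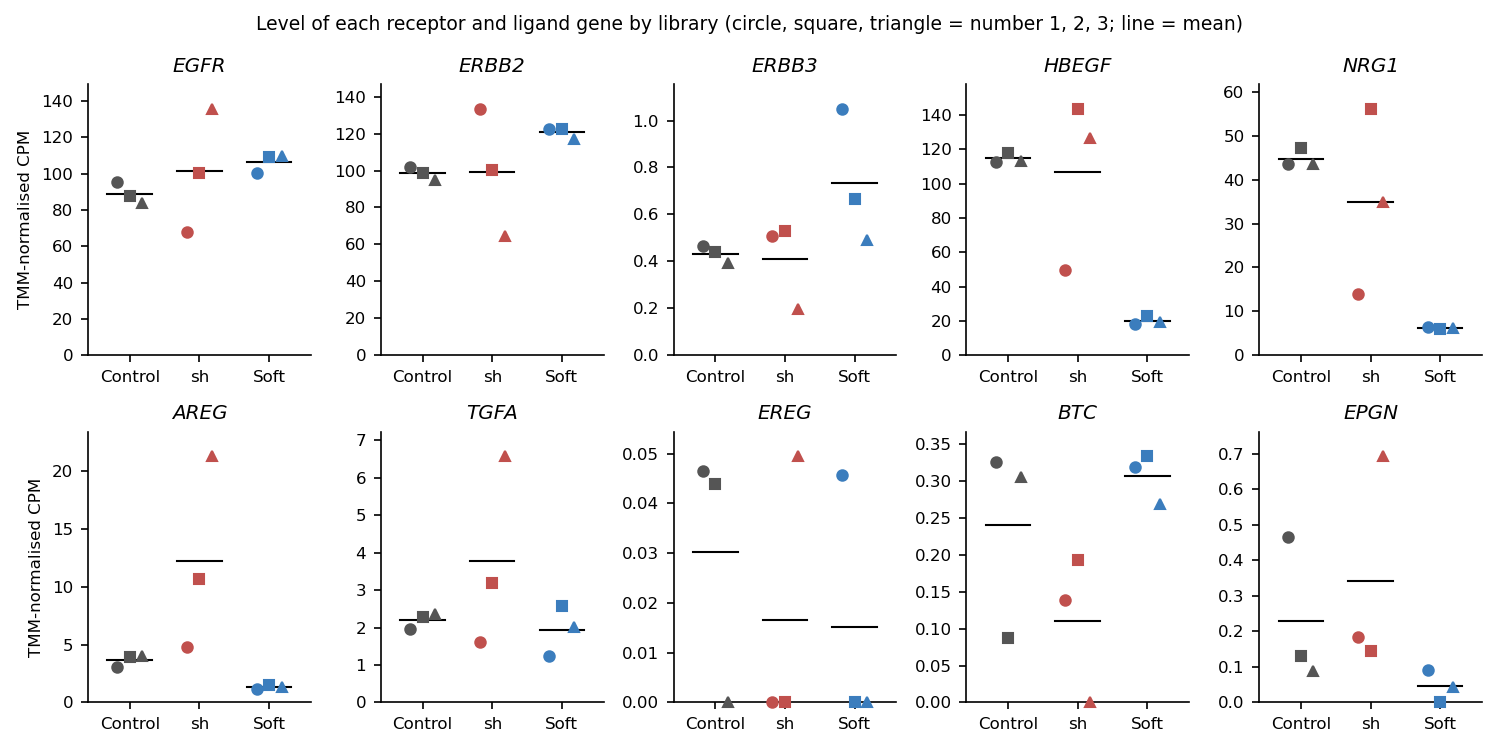
TMM-normalised CPM (vertical axes, each from 0) of the 10 genes in the 3 libraries of Control, sh_PIP4K2B (sh) and Soft; circle, square and triangle are libraries 1, 2 and 3, for sh hairpins #1, #2 and #3, and the line is the mean. HBEGF and NRG1 lie lowest in all 3 Soft libraries, while the 3 hairpin libraries scatter widely for EGFR, ERBB2, HBEGF, NRG1, AREG and TGFA.

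Tests were run across all 13784 genes with enough counts, in 1 fit of the 9 libraries, and 7 of the 10 members were among them. EREG, BTC and EPGN were too low to be tested. A gene was called at an adjusted p below 0.01 (edgeR, quasi-likelihood with Benjamini-Hochberg over all genes tested). Both comparisons against Control use the same Control libraries.

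On the soft gel the transcripts of HBEGF and NRG1 were lower than on glass, and no receptor transcript passed the test in either direction. HBEGF, the heparin-binding ligand that was the most abundant in Control, was at 112.9, 118.0 and 113.3 CPM in Control and at 17.9, 22.6 and 19.3 CPM in Soft. Every Soft library was far below every Control library. The difference was 5.76-fold (log2 fold change -2.53, SE 0.33, 95% interval -3.27 to -1.78, adjusted p = 3.1e-04, edgeR). NRG1, neuregulin, was at 43.5, 47.3 and 43.6 CPM in Control and at 6.34, 6.0 and 6.21 CPM in Soft. Its Soft libraries again lay well apart from Control and agreed closely with each other. The difference was 7.24-fold (log2 fold change -2.86, SE 0.41, 95% interval -3.77 to -1.94, adjusted p = 5.0e-04, edgeR). Of 7 members tested 0 were called higher and 2 lower, where over all genes tested 15.8% were called higher, 14.8% lower and 30.6% in either direction. In bulk RNA fewer expressing cells and less RNA per cell cannot be told apart.

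AREG, amphiregulin, was at 3.03, 3.95 and 4.02 CPM in Control and at 1.19, 1.48 and 1.30 CPM in Soft, from 26 to 31 counts in each Soft library. The conditions did not overlap. Its log2 fold change was -1.47 (SE 0.49, 95% interval -2.57 to -0.38), and its adjusted p of 0.033 did not pass 0.01 in the edgeR fit, which takes 1 spread for all conditions. It passed in a fit of Soft and Control alone (adjusted p = 3.2e-06, edgeR) and with DESeq2 (adjusted p = 0.0046). It also passed with limma voom weighted by condition (adjusted p = 1.8e-05), and in edgeR without hairpin #1 (adjusted p = 0.0030) or hairpin #3 (adjusted p = 0.0047). Those settings called 70.7%, 39.5%, 70.0%, 45.6% and 41.7% of all genes, in the same order. AREG did not pass in the other 13 of 18 alternatives, with adjusted p up to 0.092 (edgeR). TGFA, another EGFR ligand, was at 1.96, 2.28 and 2.36 CPM in Control and at 1.23, 2.57 and 2.01 CPM in Soft. These ranges overlapped (log2 fold change -0.18, 95% interval -1.24 to 0.87, adjusted p = 0.77, edgeR), and without Soft library 1 the log2 fold change was 0.06.

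The receptors were a little higher in Soft without passing the test. EGFR was at 95.3, 87.8 and 83.8 CPM in Control and at 100.2, 109.1 and 109.9 CPM in Soft. The Soft libraries were above all Control libraries by a small margin. The log2 fold change was 0.26 (SE 0.21, 95% interval -0.21 to 0.73, adjusted p = 0.34, edgeR). ERBB2 was at 102.1, 98.6 and 94.6 CPM in Control and at 122.7, 122.7 and 117.1 CPM in Soft. Here too the conditions did not overlap (log2 fold change 0.30, 95% interval -0.18 to 0.78, adjusted p = 0.28, edgeR). In the fit of Soft and Control alone EGFR had an adjusted p of 4.2e-04 and ERBB2 of 1.7e-05 (edgeR), and with voom of 0.0021 and 3.0e-04. In each of those settings 5 members passed, while 70.7% and 70.0% of all genes did. ERBB3 was close to the limit of detection, with 10, 10 and 9 counts in Control and 23, 14 and 11 in Soft (log2 fold change 0.76, 95% interval -0.17 to 1.69, adjusted p = 0.16, edgeR).

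**Figure D2:**
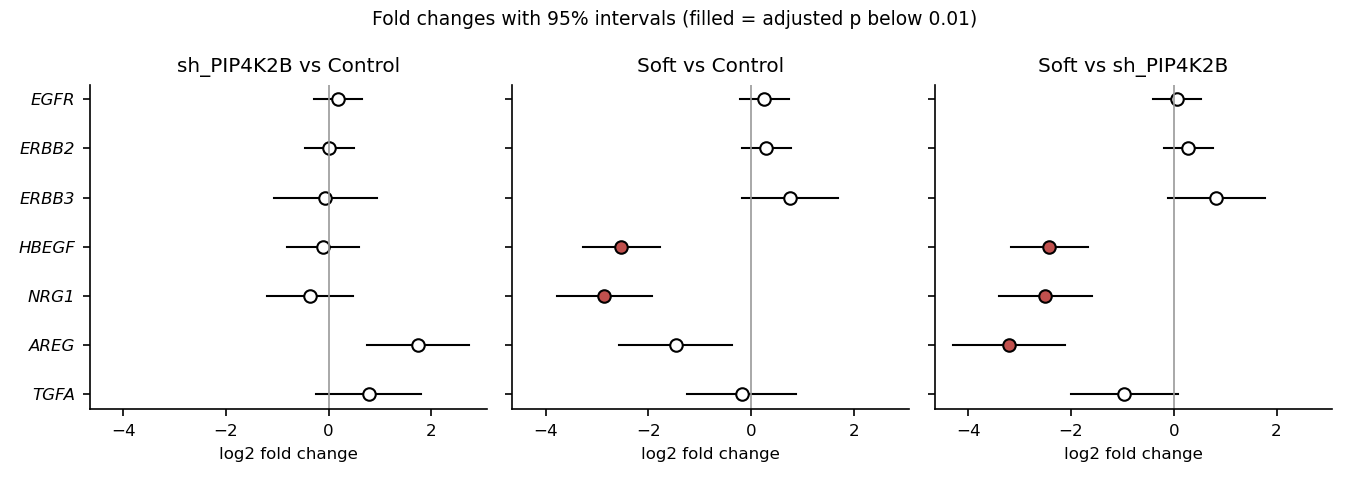
Log2 fold changes (horizontal axis) of the 7 tested genes in the 3 comparisons, with bars for 95% intervals and filled points for an adjusted p below 0.01. The interval of HBEGF in Soft against Control ran from -3.27 to -1.78, and those of EGFR, ERBB2 and ERBB3 include 0 in all 3 panels.

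With PIP4K2B hairpins no member passed the test, and for several of them the 3 hairpin libraries differed from Control in unlike directions. Of 7 members tested 0 were called, where over all genes tested 2.76% were called higher, 2.77% lower and 5.54% in either direction, and 1 member, AREG, had an unadjusted p under 0.05 (edgeR). DESeq2 called 1, AREG, and 15.0% of all genes. AREG was at 4.79 CPM with hairpin #1, 10.6 CPM with hairpin #2 and 21.3 CPM with hairpin #3, while Control ran from 3.03 to 4.02 CPM. All 3 hairpin libraries were above Control, hairpin #1 only narrowly. The log2 fold change was 1.74 (SE 0.44, 95% interval 0.74 to 2.73, adjusted p = 0.027, edgeR). It was 2.12 without hairpin #1 (adjusted p = 0.0015, edgeR), where 11.9% of all genes were called. Without hairpin #3 it was 1.07 (adjusted p = 0.036, edgeR), and with DESeq2 the adjusted p was 0.0012. In 16 of 18 alternatives AREG did not pass, the fit of only the 2 conditions and voom among them. With a library left out the adjusted p was up to 0.11 (edgeR).

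TGFA was at 1.61, 3.18 and 6.57 CPM with hairpins #1, #2 and #3. Hairpin #1 was below the Control libraries and the others above them (log2 fold change 0.78, 95% interval -0.25 to 1.81, adjusted p = 0.27, edgeR). The value was 0.12 without hairpin #3 and 1.14 without hairpin #1 (adjusted p = 0.83 and 0.047, edgeR). HBEGF was at 49.9, 143.5 and 126.4 CPM, with hairpin #1 at 43.5% of the Control mean and hairpins #2 and #3 above all Control libraries. Its log2 fold change was -0.11 (95% interval -0.80 to 0.59, adjusted p = 0.84, edgeR) and 0.23 without hairpin #1. NRG1 was at 14.0, 56.1 and 34.8 CPM, 31.2% of the Control mean with hairpin #1. Its log2 fold change was -0.36 (95% interval -1.19 to 0.48, adjusted p = 0.54, edgeR) and 0.02 without hairpin #1.

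The receptors EGFR and ERBB2 went opposite ways across the hairpin libraries. EGFR was at 67.8, 100.7 and 135.6 CPM with hairpins #1, #2 and #3, from below to above the Control range of 83.8 to 95.3 CPM. ERBB2 was at 133.2, 100.5 and 64.3 CPM, above the Control range with hairpin #1 and below it with hairpin #3. Their log2 fold changes were 0.19 for EGFR (95% interval -0.28 to 0.66, adjusted p = 0.57, edgeR) and 0.01 for ERBB2 (95% interval -0.47 to 0.49, adjusted p = 0.97, edgeR). Without hairpin #3 the value of EGFR was -0.08, and without hairpin #1 that of ERBB2 was -0.26. The ratio of EGFR to ERBB2 per kilobase was 0.234, 0.461 and 0.971 with hairpins #1, #2 and #3, against 0.407 to 0.429 in Control and 0.376 to 0.432 in Soft. ERBB3 had 11, 11 and 4 counts with the hairpins (log2 fold change -0.06, 95% interval -1.06 to 0.93, adjusted p = 0.93, edgeR).

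**Figure D3:**
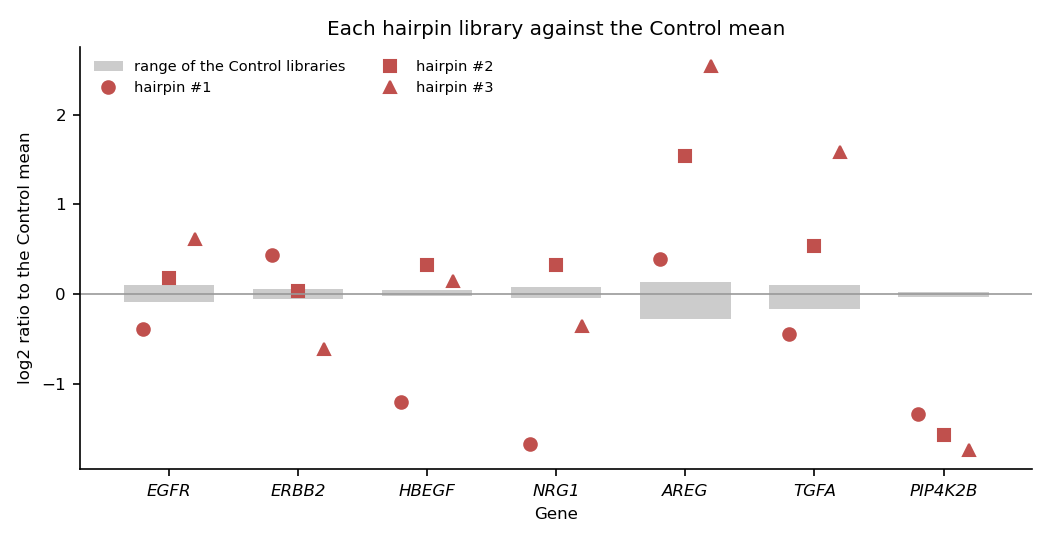
Log2 ratio of each hairpin library to the Control mean (vertical axis) for 6 members and for PIP4K2B, the targeted gene; the grey boxes span the Control libraries. PIP4K2B lies between 30.0% and 39.6% of the Control mean with all 3 hairpins, AREG lies above Control with all 3, and HBEGF and NRG1 lie far below it with hairpin #1 only.

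The direct comparison of Soft with sh_PIP4K2B tests the difference between the responses to the gel and to the hairpins. HBEGF, NRG1 and AREG were all lower in Soft. Of 7 members 0 were called higher and 3 lower, where over all genes tested 14.5% were called higher, 15.5% lower and 30.0% in either direction. AREG, whose difference from Control was upward with the hairpins and downward on the gel, was 9.24-fold lower in Soft (log2 fold change -3.21, SE 0.49, 95% interval -4.30 to -2.12, adjusted p = 7.1e-04, edgeR). Without hairpin #3, the library with the highest AREG level, that value was -2.55. HBEGF was 5.35-fold lower (log2 fold change -2.42, adjusted p = 4.1e-04, edgeR) and NRG1 5.65-fold lower (log2 fold change -2.50, adjusted p = 0.0010, edgeR), and both stayed lower without hairpin #1, the hairpin library nearest to Soft. TGFA had a log2 fold change of -0.96 (95% interval -2.0 to 0.08, adjusted p = 0.12, edgeR), and of -0.31 without hairpin #3. EGFR, ERBB2 and ERBB3 had values of 0.07, 0.28 and 0.82 (adjusted p = 0.80, 0.30 and 0.14, edgeR), and without hairpin #1 that of EGFR was -0.16.

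The 3 ligand genes left out of the test were at or near the limit of detection. EREG, epiregulin, had 0 or 1 count in every library, which does not show that it was absent. BTC, betacellulin, had 7, 2 and 7 counts in Control, 3, 4 and 0 with hairpins #1, #2 and #3, and 7, 7 and 6 in Soft. EPGN, epigen, had 10, 3 and 2 counts in Control, 4, 3 and 14 with the hairpins, and 2, 0 and 1 in Soft. Counts of this size overlap between most conditions and no difference was tested. AREG, with 26 to 431 counts in each library, was the only one of the 4 neighbours on chromosome 4 with enough counts to be tested.

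Summed over the 7 ligands, ligand transcript came to 54.7 to 57.8 CPM per kilobase in Control and to 9.55 to 12.02 in Soft. All Soft libraries were below the lowest hairpin library, since the sum was 26.7, 75.1 and 75.6 CPM per kilobase with hairpins #1, #2 and #3. HBEGF made up 86.3 to 87.5% of the sum in Control, 79.0 to 79.6% in Soft, and 79.2, 81.1 and 70.9% with the hairpins. AREG made up 4.48 to 5.85% in Control, 9.95 to 10.2% in Soft, and 14.5, 11.5 and 22.8% with the hairpins. The AREG share was thus above the Control range in all 6 other libraries, in Soft with a lower AREG level and with the hairpins with a higher one. The ratio of summed ligands to summed receptors per kilobase was 1.83 ± 0.111 in Control and 0.284 ± 0.0298 in Soft (SD, n = 3 each), and 0.739, 2.32 and 2.72 with hairpins #1, #2 and #3. Such ratios within a library do not depend on the scaling between libraries and rest on transcript lengths. They were not tested. The sums leave out the family genes EGF, NRG2, NRG3, NRG4 and ERBB4.

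**Figure D4:**
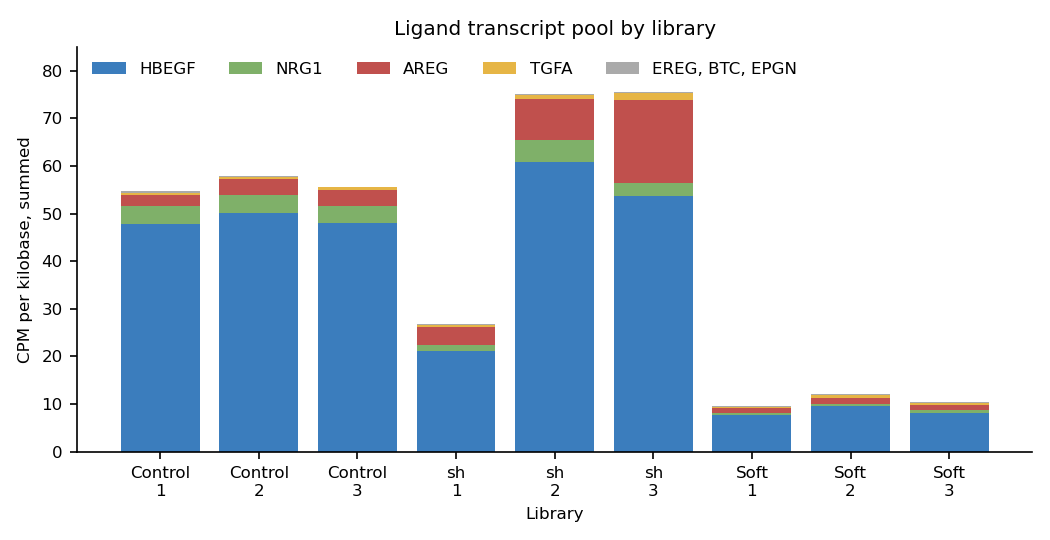
Summed CPM per kilobase of the 7 ligand transcripts in each library (bars from 0), divided by gene. The Soft bars reach 9.55 to 12.02 against 54.7 to 57.8 in Control, and AREG takes its largest share, 22.8%, with hairpin #3.

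The genes around the receptors were described with 6 lists written from general knowledge, 79 genes in all, of which 77 were tested. With the hairpins 4 were called higher and 2 lower (7.79% of the 77, beside 5.54% of all genes tested), on the soft gel 12 higher and 7 lower (24.7%, beside 30.6%), and in Soft against sh_PIP4K2B 6 higher and 11 lower (22.1%, beside 30.0%). The median log2 fold change over the lists was 0.11 with the hairpins and -0.06 on the gel, beside 0.05 and 0.01 over all genes tested. The 6 calls with the hairpins moved with the libraries used, as did those over all genes. Without Control library 1, 2 or 3 there were 1, 0 and 1 calls, where 0.872%, 0.471% and 1.15% of all genes were called. There were 13, 18 and 17 without hairpin #1, #2 or #3, where 11.9%, 14.4% and 12.7% of all genes were called, and 18 with DESeq2, where 15.0% were. The main fit takes 1 spread for all conditions. In the fit of only the 2 conditions there were 0 calls, where 0.0375% of all genes were called, and with voom 4, where 2.31% were.

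Among the other family members, NRG3 had no counts in any library and 4 genes were tested, none of which was called against Control. NRG3 and ERBB4 are named after their values were seen. ERBB4, the remaining receptor and the one through which NRG1 and HBEGF can also act, was at 2.87 ± 0.393 CPM in Control, 1.502 ± 0.628 with the hairpins and 1.24 ± 0.286 in Soft (SD, n = 3 each; adjusted p = 0.082 and 0.015 against Control, edgeR). On the gel it passed without hairpin #1 or #3 (adjusted p = 0.0075 and 0.0019, edgeR) and in the fit of only the 2 conditions (adjusted p = 7.3e-05, edgeR). It also passed with DESeq2 (adjusted p = 0.0033) and with voom (adjusted p = 2.1e-05). Those settings called 45.6%, 41.7%, 70.7%, 39.5% and 70.0% of all genes, in the same order. ERBB4 did not pass in the other 13 of 18 alternatives (adjusted p up to 0.062, edgeR). EGF, the founding ligand, was at 2.38 ± 0.227 CPM in Control, 1.31 ± 0.413 with the hairpins and 3.05 ± 0.214 in Soft (SD, n = 3 each). With the hairpins it passed only without hairpin #2 among the 18 alternatives (adjusted p = 0.0050, against 0.042 with all libraries, edgeR). It was the single call of this list in Soft against sh_PIP4K2B (log2 fold change 1.22, SE 0.25, adjusted p = 0.0033, edgeR) and is named for that after its values were seen. That call was lost when any single one of the Soft libraries was left out (adjusted p up to 0.017, edgeR). It was also lost in the fit of only the 2 conditions and with voom (adjusted p up to 0.1).

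Of the 12 genes of ligand shedding, 1 was called higher and 1 lower with the hairpins, and 3 higher and 1 lower on the gel. These shares were 16.7% and 33.3%, beside 5.54% and 30.6% of all genes tested. ADAM8, a metalloprotease, was at 1.91, 2.68 and 2.88 CPM in Control, at 5.94, 7.13 and 6.28 with hairpins #1, #2 and #3, and at 13.3, 13.7 and 13.4 in Soft. The 3 conditions did not overlap. The log2 fold change was 1.37 with the hairpins (SE 0.17, adjusted p = 0.0016, edgeR; 0.012 without Control library 2) and 2.43 on the gel (SE 0.17, adjusted p = 1.5e-05, edgeR). The call with the hairpins was also lost in the fit of only the 2 conditions and with voom (adjusted p up to 0.025). TIMP3, an inhibitor of ADAM17, was at 8.38, 6.71 and 7.03 CPM in Control, at 0.829, 2.26 and 2.22 with the hairpins, and at 1.78, 2.05 and 2.28 in Soft. It was lower in all 6 other libraries than in Control. The log2 fold change was -2.06 with the hairpins (adjusted p = 0.0038, edgeR; up to 0.024 when any single Control or Soft library was left out) and -1.85 on the gel (adjusted p = 0.0013, edgeR). With the hairpins TIMP3 was also lost in the fit of only the 2 conditions, with voom and with a block for the replicate number (adjusted p up to 0.041). ADAM17, the main sheddase of AREG, HBEGF and TGFA, was at 42.0 ± 2.91 CPM in Control, 63.6 ± 13.3 with the hairpins and 76.8 ± 2.41 in Soft (SD, n = 3 each), and rose on the gel (log2 fold change 0.87, adjusted p = 0.0012, edgeR). RHBDF1, which escorts ADAM17 to the cell surface, was the remaining call on the gel (log2 fold change 0.67, adjusted p = 0.0025, edgeR). It is named after its values were seen and did not pass when any single one of the Control or Soft libraries was left out (adjusted p up to 0.016). In Soft against sh_PIP4K2B ADAM8 was the single call (log2 fold change 1.06, adjusted p = 7.7e-04, edgeR), which was lost with voom (adjusted p = 0.022).

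Of 24 tested genes of receptor attenuation and trafficking, 2 were called higher and 1 lower with the hairpins. On the gel 4 were called higher and 3 lower, and in Soft against sh_PIP4K2B 1 higher and 6 lower. These shares were 12.5%, 29.2% and 29.2%, beside 5.54%, 30.6% and 30.0% of all genes tested. LRIG1, a membrane protein that promotes the degradation of EGFR family receptors, was at 55.1, 54.0 and 50.4 CPM in Control and at 182.3, 179.5 and 179.4 in Soft (log2 fold change 1.76, SE 0.22, adjusted p = 2.3e-04, edgeR). With hairpins #1, #2 and #3 it was at 65.7, 49.1 and 99.6 CPM and was not called. LRIG3, of the same family, rose from 10.8 ± 0.502 CPM in Control to 21.1 ± 3.65 with the hairpins (adjusted p = 0.0031, edgeR) and 22.1 ± 1.49 on the gel (SD, n = 3 each; adjusted p = 4.3e-04, edgeR). CBLB, a ubiquitin ligase that marks activated EGFR, rose with the hairpins from 16.1 ± 0.205 to 37.1 ± 8.59 CPM (SD, n = 3 each; log2 fold change 1.21, adjusted p = 0.0018, edgeR) and was also called higher on the gel, at 30.0 ± 2.48 CPM (SD, n = 3; log2 fold change 0.90, adjusted p = 0.0016, edgeR). UBASH3B, which counteracts CBL proteins, was at 165.5, 175.7 and 179.9 CPM in Control, between 94.1 and 108.3 with the hairpins and at 51.0, 56.8 and 53.5 in Soft. It was lower in all hairpin and all Soft libraries (log2 fold change -0.79, adjusted p = 0.0015, and -1.69, adjusted p = 7.0e-06, edgeR). With the hairpins LRIG3, CBLB and UBASH3B did not pass without Control library 1, 2 or 3, with adjusted p up to 0.025, 0.015 and 0.014 (edgeR), while on the gel LRIG1, LRIG3, CBLB and UBASH3B passed whichever library was left out. None of these calls with the hairpins passed in the fit of only the 2 conditions, and LRIG3 did not pass with voom. Over all alternatives their adjusted p reached 0.029, 0.02 and 0.023. The other genes called in this list are named after their values were seen. On the gel STAM and SOCS4 were lower (log2 fold change -0.84 and -0.88, adjusted p = 1.3e-04 and 4.1e-04, edgeR) and passed in all 18 alternatives. PTPRK was higher (log2 fold change 0.46, adjusted p = 0.0079, edgeR) and was lost in 8. In Soft against sh_PIP4K2B STAM, SOCS4, LRIG2, CD2AP and RAB5A were called lower beside UBASH3B. LRIG2, CD2AP and RAB5A were lost in 12, 14 and 11 alternatives.

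Of 17 adaptors and first effectors none was called with the hairpins, where 5.54% of all genes tested were. On the gel 11.8% were called and in Soft against sh_PIP4K2B 23.5%, beside 30.6% and 30.0% of all genes tested. On the gel GAB1, a docking protein, was called higher (log2 fold change 0.96, adjusted p = 0.0055, edgeR) and PIK3CB, a catalytic subunit of phosphoinositide 3-kinase, lower (log2 fold change -0.53, adjusted p = 0.0020, edgeR). GAB1 did not pass when any single one of the Control or Soft libraries was left out (adjusted p up to 0.029) and PIK3CB without Control library 2 or any one Soft library (adjusted p up to 0.015). In Soft against sh_PIP4K2B 1 of these genes was called higher, GAB2, and 3 lower, PIK3CB, SOS1 and NCK1, of which GAB2, SOS1 and NCK1 are named after their values were seen. PIK3CB and SOS1 did not pass when any single Soft library was left out (adjusted p up to 0.015 and 0.019, edgeR), GAB2 without Soft library 2 or 3 (up to 0.011), and NCK1 when any single Control or Soft library was left out (up to 0.032). PIK3CB, SOS1, GAB2 and NCK1 were also lost in the fit of only the 2 conditions, and PIK3CB, SOS1 and NCK1 with voom. Scaling by library size only lost SOS1 and NCK1. NCK1 was lost as well by upper quartile, with no filter and with a block for the replicate number (adjusted p up to 0.099 over its alternatives).

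Of 10 genes known to follow ERK activity, 1 was called higher with the hairpins and 3 higher and 1 lower on the gel. These shares were 10% and 40%, beside 5.54% and 30.6% of all genes tested. SPRY2, a regulator of receptor signalling, rose with the hairpins from 36.9 ± 1.36 to 60.1 ± 6.64 CPM (SD, n = 3 each). Its log2 fold change was 0.70 (adjusted p = 0.0035, edgeR), with adjusted p up to 0.027 when any single Control or Soft library was left out. Its call was also lost in the fit of only the 2 conditions, with voom and with a block for the replicate number (adjusted p up to 0.035). CCND1, cyclin D1, was at 2359, 2354 and 2418 CPM in Control, at 1086, 1653 and 953.5 with hairpins #1, #2 and #3, and at 489.3, 553.5 and 503.8 in Soft. Every hairpin and every Soft library was below the Control libraries. The log2 fold change was -2.20 on the gel (SE 0.20, adjusted p = 5.0e-05, edgeR) and -0.95 with the hairpins, where it did not pass (SE 0.19, adjusted p = 0.012, edgeR) except without hairpin #2 (adjusted p = 4.1e-04, edgeR), when scaled by library size only (adjusted p = 0.0064, edgeR), with DESeq2 (adjusted p = 2.7e-05) and with voom (adjusted p = 0.0055). ETV4, a transcription factor, and DUSP4, an ERK phosphatase, were called higher on the gel with log2 fold changes of 1.18 and 0.99 (adjusted p = 0.0043 and 0.0090, edgeR), and neither passed when any single one of the Control or Soft libraries was left out (adjusted p up to 0.021 and 0.037). DUSP4 also did not pass without hairpin #2 or with a block for the replicate number. PHLDA1, named after its values were seen, was the remaining call on the gel (log2 fold change 0.94, adjusted p = 1.5e-04, edgeR). In Soft against sh_PIP4K2B it was called higher (log2 fold change 0.49, adjusted p = 0.0052, edgeR) and CCND1 lower (log2 fold change -1.26, adjusted p = 8.2e-04, edgeR). That call of PHLDA1 was lost without Control library 1 or 2 or any single Soft library (adjusted p up to 0.027, edgeR). It was also lost in the fit of only the 2 conditions, with voom and with a block for the replicate number (adjusted p up to 0.042). CCND1 passed in all 18 alternatives.

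Of 10 membrane partners of EGFR none was called with the hairpins, and 1 was called higher and 1 lower on the gel. These shares were 0% and 20%, beside 5.54% and 30.6% of all genes tested. CD82, a tetraspanin, was at 38.6, 36.8 and 34.6 CPM in Control, at 33.3, 37.8 and 25.7 with the hairpins, and at 96.2, 100.6 and 90.2 in Soft (log2 fold change on the gel 1.38, SE 0.14, adjusted p = 8.5e-05, edgeR). ERBIN, listed as ERBB2IP, a scaffold that binds ERBB2, was at 122 ± 8.63 CPM in Control and 73.0 ± 1.72 in Soft (SD, n = 3 each; log2 fold change -0.75, adjusted p = 0.0052, edgeR). ERBIN did not pass when any single one of the Control or Soft libraries was left out (adjusted p up to 0.025, edgeR) or when scaled by library size only (adjusted p = 0.028, edgeR). Both were also called in Soft against sh_PIP4K2B, CD82 higher and ERBIN lower.

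**Figure D5:**
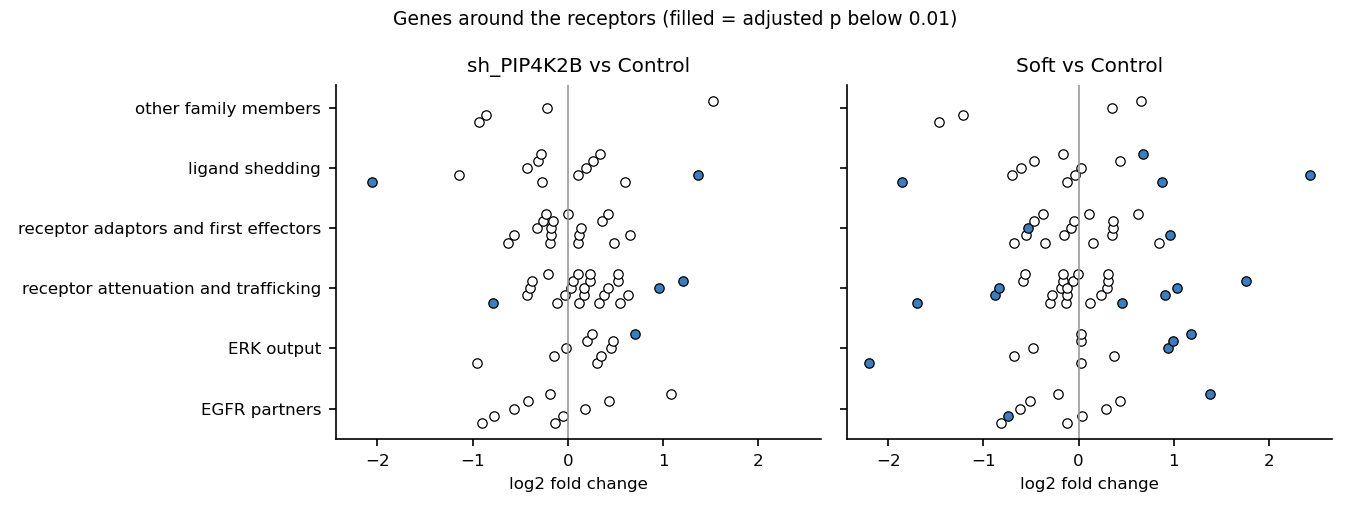
Log2 fold change (horizontal axes) of each tested gene of the 6 lists, 1 point per gene, in sh_PIP4K2B and in Soft against Control; filled points had an adjusted p below 0.01, and the vertical offset within a list carries no value. On the gel 19 of 77 points are filled against 6 of 77 with the hairpins, and the lowest filled point of the ERK output list on the gel is CCND1 at -2.20.

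Levels of cell-type markers differed between conditions, those of the retinal pigment epithelium among them. OTX2 was at 10.3 to 11.7 CPM in Control, 15.8 to 19.6 with the hairpins and 34.8 to 39.4 in Soft. RDH5 was at 18.9 to 22.1 CPM in Control, 2.22 to 5.16 with the hairpins and 10.3 to 11.999 in Soft. MITF was at 34.3 to 39.3 CPM in Control and 25.9 to 26.4 in Soft, while its hairpin range of 24.4 to 37.9 CPM overlapped Control. The summed level of 3 endothelial markers was 4.87 to 5.86 CPM in Soft, 0.132 to 0.874 in Control and 0.385 to 0.643 with the hairpins. Nearly all of it was PECAM1, while CDH5 reached at most 1 count. The summed level of 5 epithelial markers was 1921 to 2073 CPM in Control, 708 to 1122 with the hairpins and 892 to 943 in Soft. That of 6 mesenchymal markers was 9680 to 9783 CPM in Control, 4787 to 8983 with the hairpins and 7123 to 7436 in Soft. Most of this mesenchymal sum was VIM, at 8548 to 8633 CPM in Control and 5952 to 6266 in Soft. THY1, at 563 to 576 and 354 to 398 CPM, and CDH2, at 410 to 415 and 329 to 355 CPM, were also lower in Soft, as was COL1A2, below 1 CPM throughout. PDGFRB was at 27.3 to 28.1 CPM in Control and 190.8 to 195.6 in Soft, and COL1A1 at 127 to 135 and 245 to 271 CPM. With the hairpins PDGFRB ran from 18.1 to 94.6 CPM and COL1A1 from 174 to 389 CPM. These markers were not tested. The part of these shifts in the values of the ligands and receptors was not tested.

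The genes with the most similar profile across the 9 libraries were found by Pearson's r of log2 CPM over 13777 other genes, for EGFR and for both ligands with the highest mean CPM. For EGFR they were DTNA (r = 0.981), FOXP1 (r = 0.979) and EPHB6 (r = 0.966). For HBEGF they were LSM11 (r = 0.994), ZNF562 (r = 0.994) and FAM208B (r = 0.991), and for NRG1 they were MYL12A (r = 0.997), MINA (r = 0.994) and RSL1D1 (r = 0.991). These values describe shared libraries, conditions and scaling.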

How the data were processed

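RNA of 9 hTERT_RPE1 libraries, 3 per condition, was prepared with a stranded mRNA kit and sequenced as paired reads of 75 nt. Alignment was done by the authors with STAR (GRCh38/hg38), and 1 table of estimated counts per gene, unscaled and with 1 column per library, was deposited. The submitters' processing notes also name Salmon. The role of that tool and the annotation are not given in the sources used here. Of the values 12.3% were not whole, a member's value lay at most 0.119 from a whole number, and all were rounded.

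The test was the quasi-likelihood F test of edgeR 4.0.16 (R 4.3.3), after TMM scaling and filterByExpr, with 1 term per condition over 9 libraries, Benjamini-Hochberg adjustment over 13784 genes and a threshold of 0.01. The standard error was taken from the F statistic. Levels between genes are CPM per kilobase of the GENCODE v44 reference transcript. The members and the gene lists were chosen with earlier results of these data known. Of the list genes, 79 in all, all were in the table, 1 under an older symbol. Besides all members, at most 3 called genes per list and comparison against Control are named, those with the largest log2 fold change and 50 or more counts on average in a condition, and others are said to be named after their values were seen.

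Alternatives were scaling by library size or upper quartile, DESeq2 1.42.0, no filter, at least 10 counts in every library, a fit of only the 2 conditions compared, limma 3.58.1 voom with a weight per condition, unrounded counts, a block for the replicate number, each library left out in turn and a threshold of 0.05. The steps were run on simulated data, with the same spread in every condition and with each condition at its own spread. Only the edgeR run with the same spread had set criteria to meet, a setting that differs from the wider spread of sh_PIP4K2B. Promoter sequences and motif shares come from RefSeq (GRCh38.p14). Promoters of ERBB3 and NRG1 were not used here.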

Additional observations from a re-analysis of the deposited data

Results flagged for a closer look

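AREG moved in opposite directions against Control on the gel and with the hairpins, and the difference between both responses passed the test, with a log2 fold change of -3.21 in Soft against sh_PIP4K2B (SE 0.49, adjusted p = 7.1e-04, edgeR). Against Control it was lower in 3 of 3 Soft libraries and higher in 3 of 3 hairpin libraries, and neither of those differences passed 0.01 by itself (adjusted p = 0.033 and 0.027, edgeR). Over the 18 alternatives the value stayed between -3.60 and -2.55, with adjusted p from 6.8e-11 to 0.0055. With hairpin #1 AREG was at 4.79 CPM, near the highest Control library at 4.02 CPM. The cause was not tested.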

How the results depend on the processing

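HBEGF and NRG1 in Soft against both other conditions, and AREG in Soft against sh_PIP4K2B, kept their direction and their call in all 18 alternatives. Of all genes, 5.54% were called with the hairpins, 15.0% there with DESeq2, 0.0375% in the fit of only the 2 conditions, 2.31% with voom, 17.2% at a threshold of 0.05 and 0.471 to 14.4% with a library left out. On the gel the shares were 30.6%, 39.5%, 70.7%, 70.0%, 47.1% and 17.9 to 45.6% in the same order, and in Soft against sh_PIP4K2B 30.0%, 39.2%, 16.1%, 18.6%, 46.2% and 16.8 to 38.4%. Members called with the hairpins were 0, against 1 with DESeq2 and 1 at a threshold of 0.05, and 0 to 1 with a library left out. On the gel they were 2, against 5 in the fit of only the 2 conditions and 5 with voom, and 2 to 3 with a library left out. In Soft against sh_PIP4K2B they were 3 throughout. List genes called with the hairpins were 6, against 18 with DESeq2, 0 in the fit of only the 2 conditions, 4 with voom and 20 at a threshold of 0.05, and 0 to 18 with a library left out. On the gel they were 19, against 56 in the fit of only the 2 conditions, 54 with voom and 29 at a threshold of 0.05, and 12 to 34 with a library left out. In Soft against sh_PIP4K2B they were 17, against 29 with DESeq2, 8 in the fit of only the 2 conditions and 34 at a threshold of 0.05, and 8 to 32 with a library left out. PIP4K2B with the hairpins had an adjusted p of 0.012 in the fit of only the 2 conditions, against 3.8e-04 (edgeR).

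Values that changed sign were small and did not pass the threshold. With the hairpins these were ERBB3 (0.016 by library size only, -0.28 to 0.26 with a library left out), ERBB2 (-0.0090 by upper quartile, -0.046 with voom, -0.26 to 0.25 with a library left out), and, with a library left out, HBEGF (-0.38 to 0.23), NRG1 (-0.88 to 0.019) and EGFR (-0.082 to 0.41). In the same way EGFR in Soft against sh_PIP4K2B ran from -0.16 to 0.33 and TGFA on the gel from -0.44 to 0.056. PIP4K2B on the gel was at 0.0040, with -0.0047 by DESeq2, -0.011 with no filter, -0.00093 in the fit of only the 2 conditions and -0.022 to 0.022 with a library left out. Scaling by library size moved the median of all genes by 0.09 with the hairpins and 0.11 on the gel.

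Same-numbered libraries did not deviate together (r from -0.115 to 0.0394 over the 3 comparisons). This cannot exclude that libraries of the same number were prepared together, since deviations within sh_PIP4K2B also hold the differences between hairpins. With the replicate number as a block, 295, 3536 and 3366 genes were called against 763, 4217 and 4135 without it, 4 list genes passed with the hairpins, ERBB2 there was at -0.029, and the counts of members called stayed at 0, 2 and 3. Depth limits EREG, BTC and EPGN, which had too few counts to be tested, and ERBB3, with 4 to 23 counts in each library.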
